A study of Mus musculus with 14 samples.

Results

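Neuropeptide precursor genes of the locus coeruleus and the brainstem around it were followed through every library of the study, 10 in all: Gal, Npy, Calca, Calcb, Cartpt, Adcyap1, Crh, Penk, Sst and Tac1. They were chosen by gene symbol as peptides known from this region, and all 10 were found among the 55422 entries of the count table, which held 55421 genes and 1 added human tau construct. All 10 passed the filter on low counts in every comparison.

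The locus coeruleus is the main noradrenergic nucleus of the brain and sits in the pons beside the parabrachial nucleus, the cerebellar peduncle and other cell groups. Its neurons release noradrenaline together with peptides that are cut from larger precursors, packed into dense core vesicles and released during strong firing; galanin and neuropeptide Y are the best known of them in rodents. CGRP, enkephalin, somatostatin, substance P and corticotropin-releasing hormone are made by many neighbouring neurons, and several of these reach the locus coeruleus as inputs.

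The animals were 7 mice, 3 male and 4 female, on a C57Bl/6 background, all carrying TH-Cre and Slc6a2-eGFP/Rpl10a, a transgene that places a fluorescent tag on the ribosomes of cells that use the noradrenaline transporter gene Slc6a2. At 2 to 3 months of age, 4 of them (animals B, C, L and M) were infused in the locus coeruleus with P364S mutant human tau and 3 (H, I and K) with EYFP, the control protein, which is itself a variant of the green fluorescent protein. Each animal gave an immunoprecipitated (IP) library of ribosome-bound RNA and a library of the total brainstem homogenate (pre-IP), 14 libraries in all. Nothing in the sources used here names the antibody of the immunoprecipitation, the infused vector or whether its expression depended on Cre.

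Total counts ran from 41843489 to 65664551 per library, and the limit set by 3 counts was between 0.0457 and 0.0717 CPM (a count divided by the library total, per 1000000), far below every value given for the 10 genes. The tau construct had 3527 to 47177 counts in tau libraries, 2 to 18 in EYFP animals H and I, and 408 and 398 in the pre-IP and IP libraries of EYFP animal K. The defining noradrenergic marker Dbh was at 8.31 to 26.5 CPM in all pre-IP libraries, 29.2 to 56.1 CPM in EYFP IP libraries and 128.3 to 1292 CPM in tau IP libraries. IP samples of tau animals held 0.1 to 0.8 ng/µL of RNA against 0.7 to 2.8 ng/µL in EYFP animals, and 1 EYFP IP sample, of animal I, had an RNA integrity number of 4.2 against 7.7 to 9 in the other IP samples. Library numbers fell in 2 ranges, up to 11 for animals B, C, H and I and from 17 for K, L and M.

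Promoter sequence is shown for the 3 members with the largest excess in IP over pre-IP, because Gal and Calca moved together across libraries while Npy moved with them less closely. Of the 10 genes, 7 had an entry in the RefSeq promoter table (build GRCm38.p6); Calcb, Crh and Penk were not among them. Each run is the 250 bases before the start, 5′ to 3′ on the gene's strand, and capitals mark the letters TGACG, the half-site of the cAMP response element, on either strand. Gal lies on the minus strand of chromosome 19 (window chr19:3414545-3414794), Npy on the plus strand of chromosome 6 (chr6:49822460-49822709) and Calca on the minus strand of chromosome 7 (chr7:114636358-114636607).
Gal: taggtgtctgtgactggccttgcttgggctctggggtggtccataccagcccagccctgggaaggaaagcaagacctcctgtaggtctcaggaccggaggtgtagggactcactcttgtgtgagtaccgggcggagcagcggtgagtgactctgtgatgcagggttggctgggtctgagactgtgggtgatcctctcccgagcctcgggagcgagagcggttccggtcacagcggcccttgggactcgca
Npy: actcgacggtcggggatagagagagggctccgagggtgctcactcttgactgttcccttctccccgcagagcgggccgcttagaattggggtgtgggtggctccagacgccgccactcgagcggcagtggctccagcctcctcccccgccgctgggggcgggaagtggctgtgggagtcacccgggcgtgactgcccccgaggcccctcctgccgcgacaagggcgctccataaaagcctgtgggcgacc
Calca: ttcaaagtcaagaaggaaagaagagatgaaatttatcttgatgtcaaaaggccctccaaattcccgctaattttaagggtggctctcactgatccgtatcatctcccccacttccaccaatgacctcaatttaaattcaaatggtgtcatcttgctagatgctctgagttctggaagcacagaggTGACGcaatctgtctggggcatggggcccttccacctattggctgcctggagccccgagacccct

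Calca held 1 half-site, at -65 to -61 from its start, and Gal and Npy held none. Tac1 held 2, at -197 to -193 and -43 to -39 on the opposite strand, and Adcyap1 held 1, which lies at -91 to -87 from one of its starts and at -242 to -238 from the other. Cartpt and Sst each held the full palindrome TGACGTCA, at -112 to -105 and -48 to -41, shown in 25-base windows with the palindrome in capitals (Cartpt chr13:99900781-99900805 and Sst chr16:23890878-23890902, both minus strand).
Cartpt: cggcgggcatTGACGTCAaacggca
Sst: cctccttggcTGACGTCAgagagag
Of the 32851 RefSeq promoter windows of the same length, 1.55% held TGACGTCA on either strand and 17.8% held TGACG, which lies within it. The AP-1 letters TGANTCA (6.75% of windows) and the E-box CAGCTG (13.001%) were in no member's window, the homeodomain core TAATTA (4.84%) was in that of Tac1 and TATAAA (12.4%) in 1 of the 2 windows of Adcyap1. These are letter matches only.

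Calca and Calcb are neighbours on chromosome 7 and paralogs, encoding calcitonin with CGRP alpha and CGRP beta, so their longest identical stretch is shown because reads inside it fit both genes. It is 61 bases long and coding in both, with 59 bases in exon 4 of 5 of Calca (chr7:114632541-114632599, minus strand) and 59 in exon 5 of 6 of Calcb (chr7:114721975-114722033, plus strand), build GRCm38 as annotated by GENCODE M21.
Shared run: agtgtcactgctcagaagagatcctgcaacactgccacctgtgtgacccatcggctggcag
Stretches of 31 bases found in both genes made up 2.02% of those of Calca and 2.62% of those of Calcb. How reads with more than 1 placement were counted is not given in the sources used here. Gene-level counts also join the calcitonin and CGRP forms of Calca.

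Gal encodes the precursor of galanin, an inhibitory peptide of noradrenergic neurons (chromosome 19, 3409915 to 3414544, minus strand). In pre-IP libraries Gal stood at 21.5, 24.7 and 23.8 CPM in EYFP animals H, I and K and at 28.5, 25.2, 25.98 and 18.8 CPM in tau animals B, C, L and M. In IP libraries it stood at 37.5, 45.8 and 48.3 CPM in the EYFP animals and at 1178, 527, 463 and 123 CPM in the tau animals. Every IP library was above its own pre-IP library, and the lowest tau IP value, that of animal M, was above the highest EYFP IP value. Gal in IP over pre-IP was 49.2-fold in B, 21.9-fold in C, 18.2-fold in L and 6.37-fold in M, against 1.82-, 1.80- and 1.95-fold in H, I and K.

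Calca (chromosome 7, 114631478 to 114636357, minus strand) also had its highest values in tau IP libraries. Its pre-IP values were 21.5, 24.1 and 33.9 CPM in EYFP animals H, I and K and 28.8, 22.8, 27.01 and 34.9 CPM in tau animals B, C, L and M. Its IP values were 26.7, 35.8 and 46.6 CPM in the EYFP animals and 686, 296, 309 and 88.6 CPM in the tau animals, again without overlap, with B highest and M lowest as for Gal. Its paralog Calcb (chromosome 7, 114718643 to 114723365, plus strand) had overlapping groups: it stood at 6.17, 5.94 and 16.3 CPM in EYFP IP and at 5.34, 9.27, 8.48 and 14.5 CPM in tau IP libraries, beside 7.002, 7.12 and 12.5 CPM in EYFP pre-IP libraries, and 9.31, 8.92, 9.17 and 12.2 CPM in tau pre-IP libraries. Per kilobase of exon, Calca exceeded Calcb 1.92- to 2.55-fold in the 7 pre-IP libraries, 2.15- to 4.52-fold in EYFP IP and 4.59-, 23.96-, 27.3- and 96.4-fold in the tau IP libraries of M, C, L and B.

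Npy (chromosome 6, 49822710 to 49829507, plus strand), the neuropeptide Y precursor, spanned a narrower range. It stood at 30.5, 34.5 and 31.3 CPM in EYFP pre-IP libraries, 37.3, 34.02, 33.0 and 28.1 CPM in tau pre-IP (B, C, L, M), 38.1, 35.4 and 35.6 CPM in EYFP IP and 79.2, 61.4, 34.995 and 43.6 CPM in tau IP libraries. The tau and EYFP IP values overlapped through animal L alone. Cartpt (chromosome 13, 99898489 to 99901091, minus strand), which encodes the CART peptides of feeding and arousal circuits, stood at 84.9, 80.9 and 55.9 CPM in EYFP pre-IP libraries, 70.1, 80.6, 88.8 and 74.4 CPM in tau pre-IP, 107.5, 83.0 and 68.2 CPM in EYFP IP and 95.2, 116.3, 88.0 and 101.6 CPM in tau IP libraries. For Cartpt the groups overlapped in both fractions.

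**Figure D1:**
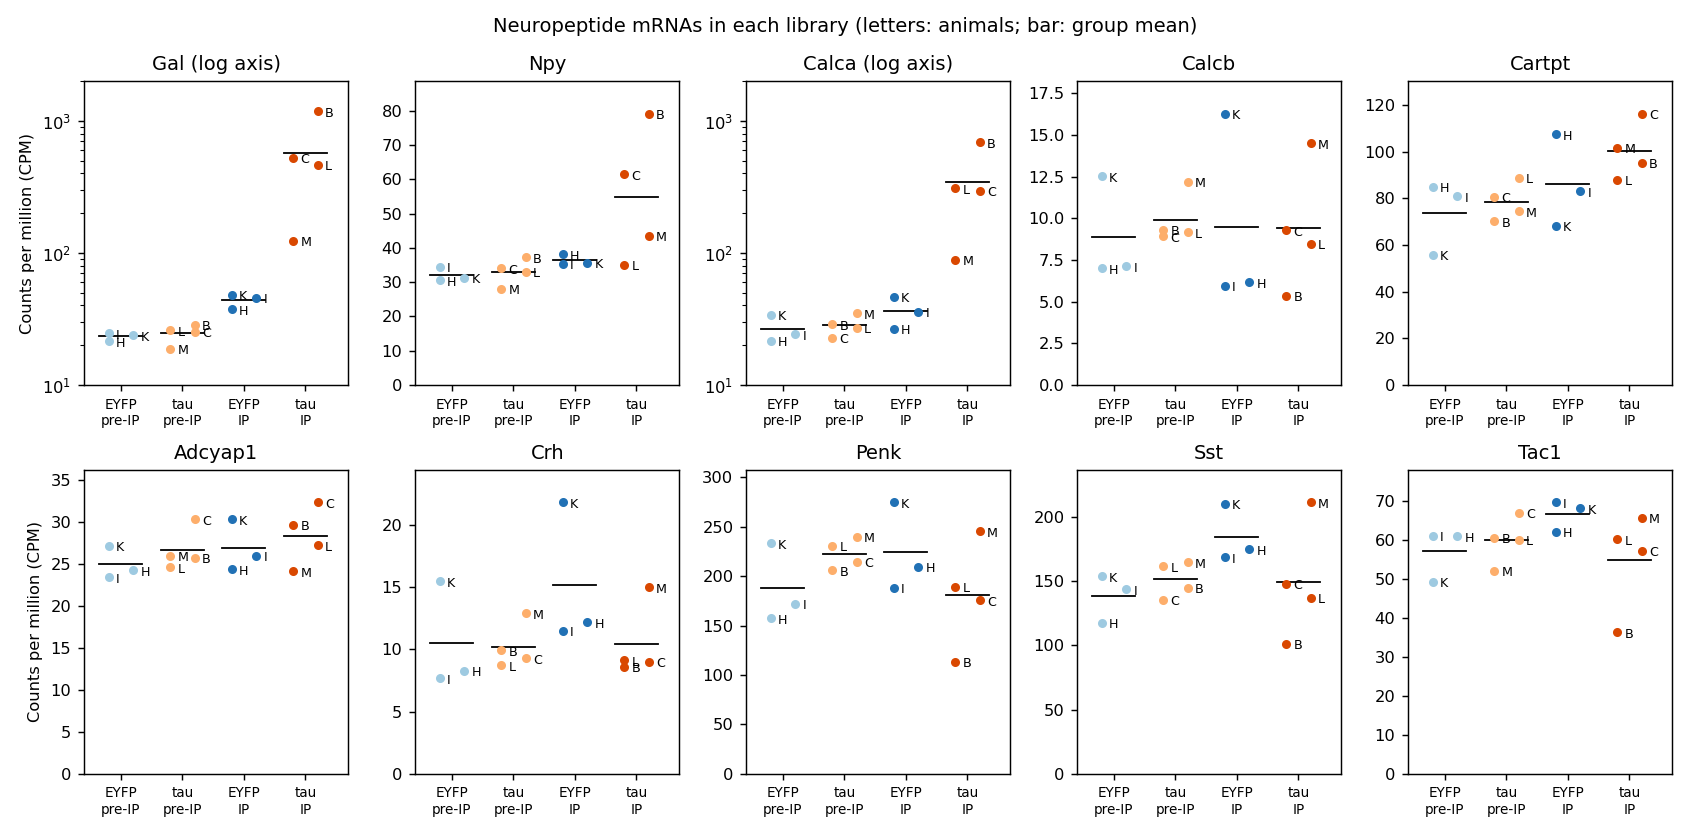
CPM of the 10 neuropeptide genes in each of the 14 libraries, with animals as letters and group means as bars; the panels of Gal and Calca have log axes and the others start at 0. Gal and Calca in tau IP sit above all other libraries, from 123 and 88.6 CPM in animal M to 1178 and 686 CPM in animal B.

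The remaining genes had overlapping ranges in the pre-IP and IP libraries. Adcyap1 (chromosome 17, 93199017 to 93206537, plus strand), precursor of the stimulatory peptide PACAP, ranged from 23.4 to 30.3 CPM in pre-IP and from 24.1 to 32.3 CPM in IP libraries. Crh (chromosome 3, 19693401 to 19695396, minus strand), the precursor of the stress hormone that excites noradrenergic neurons, stood at 12.2, 11.5 and 21.8 CPM in EYFP IP and 8.61, 9.02, 9.11 and 14.98 CPM in tau IP libraries, and ranged from 7.68 to 15.5 CPM in pre-IP libraries. Penk (chromosome 4, 4133531 to 4138819, minus strand), the precursor of the enkephalins, which act on opioid receptors, stood at 209, 188 and 275 CPM in EYFP IP and 113, 175, 189 and 245 CPM in tau IP libraries, beside 157, 172 and 233 CPM in EYFP pre-IP libraries, and 206, 215, 231 and 240 CPM in tau pre-IP libraries. An opposite-strand gene, A830012C17Rik, shares 14.3% of the exon bases of Penk and had 28 counts over all 14 libraries. Sst (chromosome 16, 23889573 to 23890958, minus strand), which encodes the inhibitory peptide somatostatin, ranged from 118 to 165 CPM in pre-IP and from 101 to 212 CPM in IP libraries. Tac1 (chromosome 6, 7554879 to 7565834, plus strand), the substance P precursor, ranged from 49.4 to 67.0 CPM in pre-IP and from 36.3 to 69.7 CPM in IP libraries. In each of Penk, Sst and Tac1, and in Calcb above, the lowest of the 14 values was the tau IP library of animal B. Gal and Calca were highest in that library. The IP sample of B held 0.1 ng/µL of RNA, and 20813 genes had any count in its library, against 23632 to 25885 in the other IP libraries. The part of this in the values of B was not tested.

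Levels of different genes were compared as CPM per kilobase of exon. In tau pre-IP libraries Sst was first with 210.5 ± 19.2 (SD, n = 4) CPM per kilobase, then Penk with 136.4 ± 9.4, Cartpt with 61.4 ± 6.4 and Npy with 58.5 ± 6.7, Gal with 31.3 ± 5.2, Tac1 with 17.6 ± 1.8 and Calca with 16.8 ± 3.0, and last Calcb, Crh and Adcyap1 with 7.83 ± 1.22, 7.73 ± 1.42 and 7.05 ± 0.66. Neighbours in this order overlapped for Cartpt and Npy, for Tac1 and Calca, and among the last 3 genes, and the EYFP pre-IP libraries gave the same overlaps. EYFP IP libraries kept Sst first, at 256 ± 31 (n = 3). In tau IP libraries Gal came first with 727 ± 559 (n = 4), ahead of Sst with 207 ± 64 and Calca with 205 ± 148, but these overlapped, since the lowest Gal library was at 156 and the highest Sst library at 293.

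**Figure D2:**
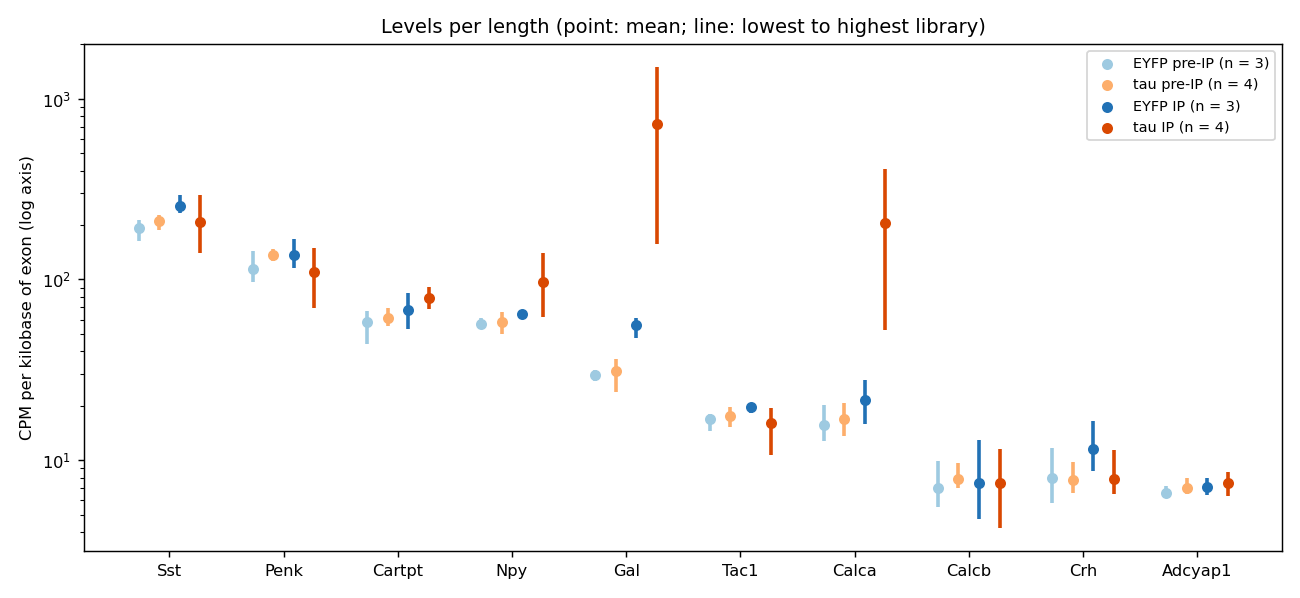
CPM per kilobase of exon on a log axis for the 10 genes, ordered by their mean in tau pre-IP libraries; points are group means and lines run from the lowest to the highest library. Sst and Penk lead in pre-IP, and Gal (727 on average) and Calca (205) stand far above their other groups in tau IP.

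The first question was what the immunoprecipitation enriched, since the tagged ribosomes belong to noradrenergic cells. Over the 14 libraries, with treatment as a term, edgeR's quasi-likelihood test with Benjamini-Hochberg adjustment called 4 of the 10 genes higher in IP than in pre-IP and 0 lower, beside 16.3% of the 18792 genes tested called higher and 14.7% called lower. The median log2 fold change of the 10 was 0.24, against -0.0036 over all genes. Gal was higher by a log2 of 3.15 (SE 0.69, adjusted p = 0.00278) and Calca by 2.39 (SE 0.60, adjusted p = 0.0068). Npy was higher by 0.56 (SE 0.19, adjusted p = 0.0311) and Cartpt by 0.35 (SE 0.12, adjusted p = 0.0323). The other 6 had log2 fold changes between -0.03 (Penk) and 0.28 (Crh), with adjusted p from 0.287 to 0.948. The calls of Npy and Cartpt were lost together without animal C (adjusted p 0.106 and 0.111), without H (0.0535 and 0.0529) or without M (0.058 and 0.0726), and that of Cartpt also without B (0.0905), by limma voom (0.0667) and without a filter on low counts (0.0545). Over 18 alternatives the adjusted p of Cartpt was under 0.05 in 9 and that of Npy in 13.

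Taken by treatment, the same fit in the 4 tau animals called Gal (log2 4.65, SE 0.60, adjusted p = 0.00478), Calca (3.704, SE 0.54, adjusted p = 0.00556), Npy (0.81, SE 0.26, adjusted p = 0.0481) and Cartpt (0.42, SE 0.13, adjusted p = 0.0468), where 10.4% of genes were higher and 10.3% lower. With the animal as a block in the tau animals, Cartpt had an adjusted p of 0.0719 and 3 members were called. In the 3 EYFP animals edgeR called Gal alone (log2 0.90, SE 0.17, adjusted p = 0.0162), where 3.96% of genes were higher and 2.41% lower. Calca there had a log2 fold change of 0.44 (SE 0.25, adjusted p = 0.336). With the animal as a block in the EYFP animals, Crh was called as well (log2 0.54, SE 0.17, adjusted p = 0.0316), and Calca had an adjusted p of 0.0551. The number of all genes called there went from 1218 to 3227 with the block.

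Taken animal by animal, log2 ratios of IP over pre-IP were set beside the mean ratio of 10 noradrenergic genes (Dbh, Th, Slc6a2, Slc18a2, Ddc, Phox2a, Gch1, Tfap2b, Cyb561 and Maoa). Over the 14 libraries edgeR called all 10 of them higher in IP than in pre-IP, with a median log2 fold change of 2.14, and 9 of the 10 with the animal as a block (Cyb561 had an adjusted p of 0.0543). In the tau animals alone, without the block, it called all 10 higher (median 3.22). In the EYFP animals alone it called 1 of the 10 higher (median 0.62). The mean ratio of the 10 noradrenergic genes was 4.61 in B, 3.57 in C, 3.53 in L and 1.59 in M, and 0.74, 0.78 and 0.62 in H, I and K. The 4 tau animals had the same order for Gal (5.62, 4.45, 4.19, 2.67) and for Calca (4.82, 3.77, 3.55, 1.31). The EYFP animals gave 0.86, 0.85 and 0.96 for Gal and 0.37, 0.52 and 0.40 for Calca. Npy had ratios of 1.34, 0.92, 0.12 and 0.60 in B, C, L and M and 0.38, -0.0027 and 0.13 in H, I and K, so animal L, below only B and C in noradrenergic enrichment, was within the range of the EYFP animals. Cartpt placed the animals likewise, with 0.70 in B, 0.60 in C, 0.02 in L and 0.42 in M.

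Crh had ratios of 0.03 to 0.18 in the tau animals and of 0.44 to 0.62 in the EYFP animals, without overlap. Penk had ratios of -0.61, -0.22, -0.25 and -0.00074 in B, C, L and M and of 0.47, 0.09 and 0.18 in H, I and K, so that no tau animal was above 0 and no EYFP animal below it. The main interaction fit, given below, did not call either gene, but it does not pair the libraries of an animal as these ratios do. With the animal as a block, edgeR called 0 of 20495 genes in the interaction. The share of all genes with ratios apart like those of Crh or Penk was not counted.

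**Figure D3:**
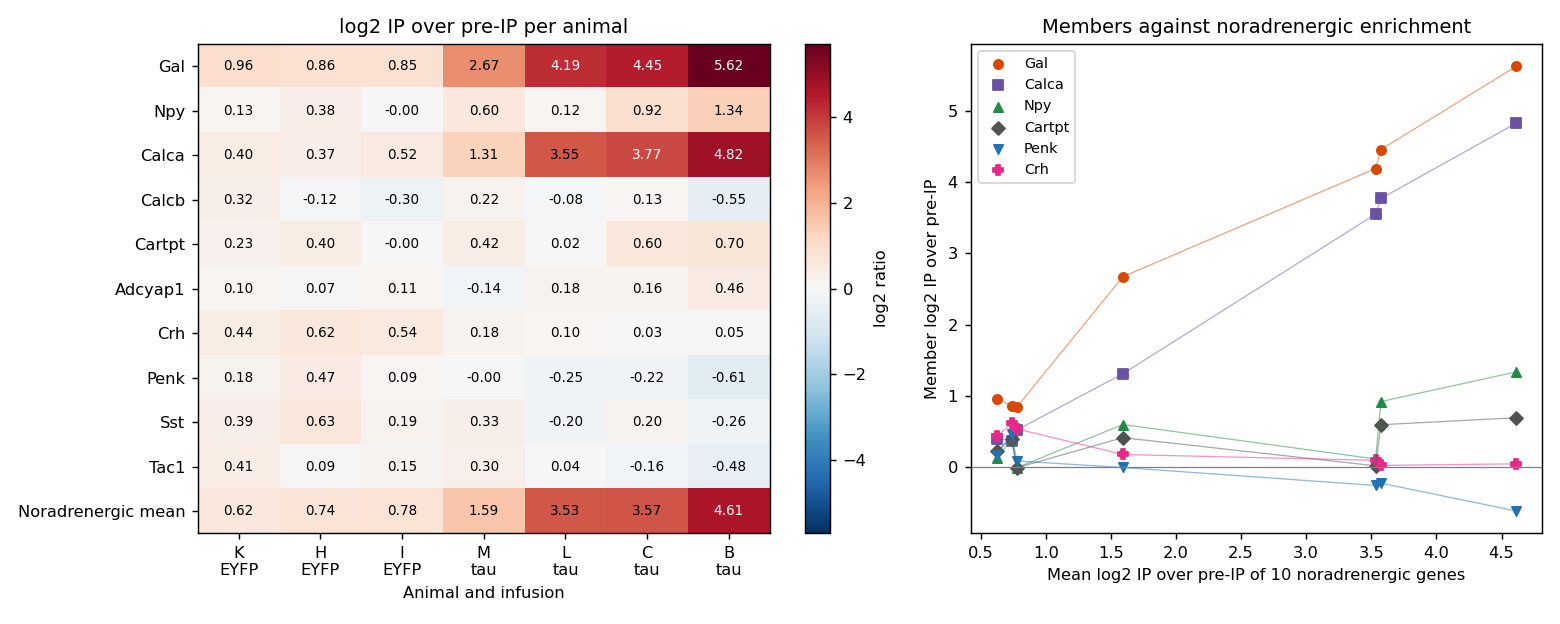
Left, log2 IP over pre-IP for each gene (rows) and animal (columns), with the mean of 10 noradrenergic genes in the last row; right, the same ratios of 6 genes against that mean, 1 point per animal. Gal and Calca climb with the noradrenergic mean among the tau animals from M to B and lie lower in the EYFP animals, where Gal is highest in K, the animal with the lowest noradrenergic mean, while Penk goes from 0.47 in H to -0.61 in B.

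The comparison the study was built on was tau against EYFP in the IP libraries. Here edgeR called 0 of 19472 genes (0%) and so 0 of the 10, with 2336 genes and 3 of the 10 at an unadjusted p under 0.05. DESeq2 called 411 genes, 390 of them higher in tau, which is 2.00% of the 19472 genes. That total includes genes to which DESeq2 gave no adjusted p, among them 3 of the 10: Calcb, Adcyap1 and Crh. The share among genes with an adjusted p was not counted. With sample quality weights, limma voom called 0. The 10 had a median log2 fold change of 0.12 by edgeR against -0.08 over all genes. Gal differed by a log2 of 3.86 (SE 0.68) and Calca by 3.39 (SE 0.63), each with an adjusted p of 0.318 in edgeR. Npy had 0.72 (SE 0.29, edgeR adjusted p = 0.382), and the others lay between -0.45 (Crh) and 0.33 (Cartpt). By DESeq2 the adjusted p was 9.94e-05 for Gal and 0.000606 for Calca, and over 14 alternatives it ran from 9.94e-05 to 0.636 for Gal and from 0.000606 to 0.636 for Calca. Gal and Calca were called in 4 of the 14: DESeq2, no filter on low counts, a single fit of all 14 libraries, and without tau animal M (log2 4.20 and 3.72, edgeR adjusted p 0.00727 and 0.00925).

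Gal and Calca were 2 of the 10 genes whose CPM ranges in tau and EYFP IP libraries did not overlap, beside 15.6% of all genes tested. Within the library numbers up to 11 (2 tau and 2 EYFP animals), the tau minus EYFP difference in mean log2 CPM was 4.45 for Gal and 4.06 for Calca. From 17 on (2 tau animals and EYFP animal K), it was 2.32 for Gal and 1.85 for Calca. With the range as a covariate the edgeR log2 fold changes were 3.73 and 3.30, both with an adjusted p of 0.199.

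Summed levels of cell type genes in the IP libraries were set beside these values. The summed level of the 10 noradrenergic genes was 937 to 5959 CPM in the tau and 514 to 587 CPM in the EYFP IP libraries, with none of them at 0 in any group. Oligodendrocyte genes (Mbp, Mog, Mobp) summed to 2327 to 6926 CPM in tau IP against 5512 to 8176 CPM in EYFP IP, astrocyte genes (Aqp4, Gfap, Slc1a3, Aldh1l1) to 293 to 664 and 588 to 840 CPM, and microglial genes (Cx3cr1, P2ry12, Csf1r) to 36.6 to 52.8 and 60.7 to 82.8 CPM. Genes of GABAergic and glycinergic neurons (Gad1, Gad2, Slc32a1, Slc6a5) summed to 186 to 336 CPM in tau IP against 388 to 462 CPM in EYFP IP, those of glutamatergic neurons (Slc17a6, Slc17a7, Slc17a8) to 130 to 242 and 310 to 363 CPM. Transcription factor genes of the parabrachial region (Foxp2, Lmx1b) summed to 12.9 to 21.3 CPM in the tau and 13.01 to 21.7 CPM in the EYFP IP libraries, and 5 pituitary hormone genes to 26.6 to 4179 and 23.6 to 746 CPM. None of the genes in these lists was at 0 throughout a group, and edgeR called none of them between tau and EYFP in IP. DESeq2 gave an adjusted p for 8 of the 10 noradrenergic genes and called these 8 higher in tau. It called no gene of the other lists, but gave no adjusted p for any microglial or parabrachial gene. For the GABAergic and glycinergic, glutamatergic, astrocyte and pituitary genes it gave an adjusted p for only some. Together with the RNA concentrations given above, their part in the Gal and Calca values was not tested. The labels name EYFP as the infusion of the control animals alone, and the antibody is not named. An effect of tau and a lower yield of tagged ribosomes in the controls, had the antibody also bound EYFP, cannot therefore be told apart. This holds for any tau against EYFP difference of IP libraries or of IP over pre-IP ratios. In such bulk samples fewer cells of a type and less RNA per cell cannot be told apart.

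**Figure D4:**
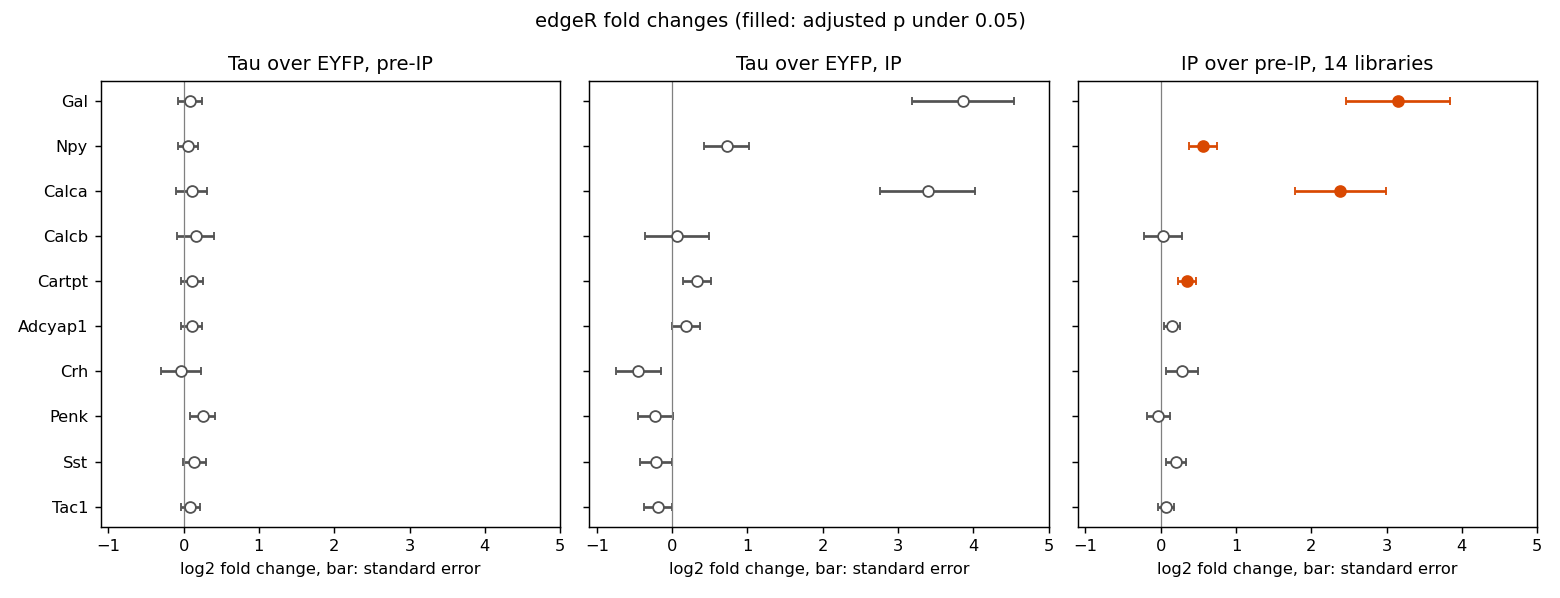
edgeR log2 fold changes with standard errors for the 10 genes in tau over EYFP pre-IP libraries, tau over EYFP IP libraries, and IP over pre-IP libraries; filled points have an adjusted p under 0.05. The 4 filled points are Gal, Calca, Npy and Cartpt in IP over pre-IP, and Gal (3.86) and Calca (3.39) have the widest error bars in tau over EYFP IP.

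In the pre-IP libraries, which show whether the whole tissue differed, edgeR called 0 of 19197 genes (0%) between tau and EYFP and none of the 10, with 545 genes and 0 of the 10 at an unadjusted p under 0.05; DESeq2 and limma voom also called 0 genes. The log2 fold changes of the 10 lay between -0.04 (Crh) and 0.26 (Penk, SE 0.17), with Gal at 0.09 (SE 0.16) and Calca at 0.11 (SE 0.21). In 0 of the 10 did the CPM ranges of the groups stand apart, beside 3.12% of all genes tested. The summed noradrenergic level was 389 to 420.2 CPM in tau and 386 to 453 CPM in EYFP pre-IP libraries.

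Whether the tau difference was larger in IP than in pre-IP was tested as an interaction. By edgeR 0 of 20495 genes (0%) were called, with 1223 genes and 2 of the 10, Gal and Calca, at an unadjusted p under 0.05; limma voom called 0 and DESeq2 52 genes, 47 of them higher (0.229%). The interaction was a log2 of 3.79 for Gal (SE 0.69, edgeR adjusted p = 0.222) and of 3.30 for Calca (SE 0.68, edgeR adjusted p = 0.242). By DESeq2 the adjusted p was 0.001 for Gal and 0.0129 for Calca. Over 14 alternatives they ran from 2.04e-05 to 1.000 and from 0.000127 to 1.000, and both were called in 3, by DESeq2, without a filter, and without tau animal M. Without the animal block, the interaction was -0.48 for Penk (SE 0.30, edgeR adjusted p = 0.837) and -0.41 for Crh (SE 0.44, edgeR adjusted p = 0.915).

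The genes whose log2 CPM over the 14 libraries was most like that of each member, among 15081 others with a mean of at least 1 CPM, are given as a description; libraries of an animal and of a fraction are not independent. For Gal these were Shisal2b (r = 0.997), the noradrenaline synthesis gene Th (0.996) and the calcitonin receptor Calcr (0.993). For Calca they were Slc10a4, a transporter-family member of monoaminergic vesicles (0.992), S100a10 (0.991) and the decarboxylase Ddc (0.989). Gal and Calca correlated with each other at 0.984, and with Dbh at 0.975 and 0.972. Npy was most like Exosc4, Pop5 and Mrpl34 (0.967, 0.967 and 0.966), and had r = 0.799 with Dbh. Cartpt was most like Krt1, A430018G15Rik and Pnma3 (0.936, 0.925 and 0.921), and Adcyap1 like Map2k1, Brd9 and Ubash3b (0.897, 0.895 and 0.894).

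The other 5 followed different genes. Penk was most like the vesicular GABA and glycine transporter Slc32a1 (0.964), then Anxa2 (0.918) and Gstm1 (0.916). Crh was most like the serotonin synthesis gene Tph2 (0.922), then Pla2g7 (0.915) and Sh3bgr (0.887). Calcb was most like Nppc (0.902), Lamp5 (0.833) and Penk (0.826), and Sst like Ppp1r14a (0.913), the parvalbumin gene Pvalb (0.878) and Cryz (0.878). Tac1 was most like Gm28661, Cep83 and Fgf2 (0.949, 0.928 and 0.894). Among themselves Calcb, Crh, Penk and Sst correlated at 0.678 to 0.833, and with Dbh at -0.285 to 0.0995.

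Several of these genes were highest in the same 2 animals, 1 of each treatment, a split noticed after the values were seen; no correlation was computed without them. EYFP animal K and tau animal M held the highest pair of pre-IP values for Calca, Calcb, Crh and Penk, 4 of the 10, beside 9.2% of the 15082 genes with a mean of at least 1 CPM. In IP they held the highest pair for Calcb, Crh, Penk and Sst, again 4 of the 10, beside 6.29% of those genes. For Calcb the pre-IP values of K and M were 12.5 and 12.2 CPM against 7.002 to 9.31 CPM in the other 5 animals, and for Crh 15.5 and 12.9 CPM against 7.68 to 9.92 CPM.

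The same 4 libraries differed in genes that are not members, also picked after seeing their values. Hcrt, the precursor of the hypothalamic peptide orexin, was at 0.219 and 0.129 CPM in the pre-IP and 0.231 and 1.21 CPM in the IP libraries of K and M, and at 9.94 to 34.6 CPM in pre-IP and 4.70 to 46.98 CPM in IP libraries of the other animals. Oxt, the oxytocin precursor, was at 0.132 to 0.306 CPM in the 4 libraries of K and M and at 1.14 to 45.8 CPM elsewhere. The glycine transporter gene Slc6a5, of inhibitory neurons of the lower brainstem, was at 91.2 and 81.99 CPM in the pre-IP libraries of K and M and at 35.9 to 43.7 CPM in the other pre-IP libraries. The part of these differences in the Calcb, Crh, Penk and Sst values was not tested.

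**Figure D5:**
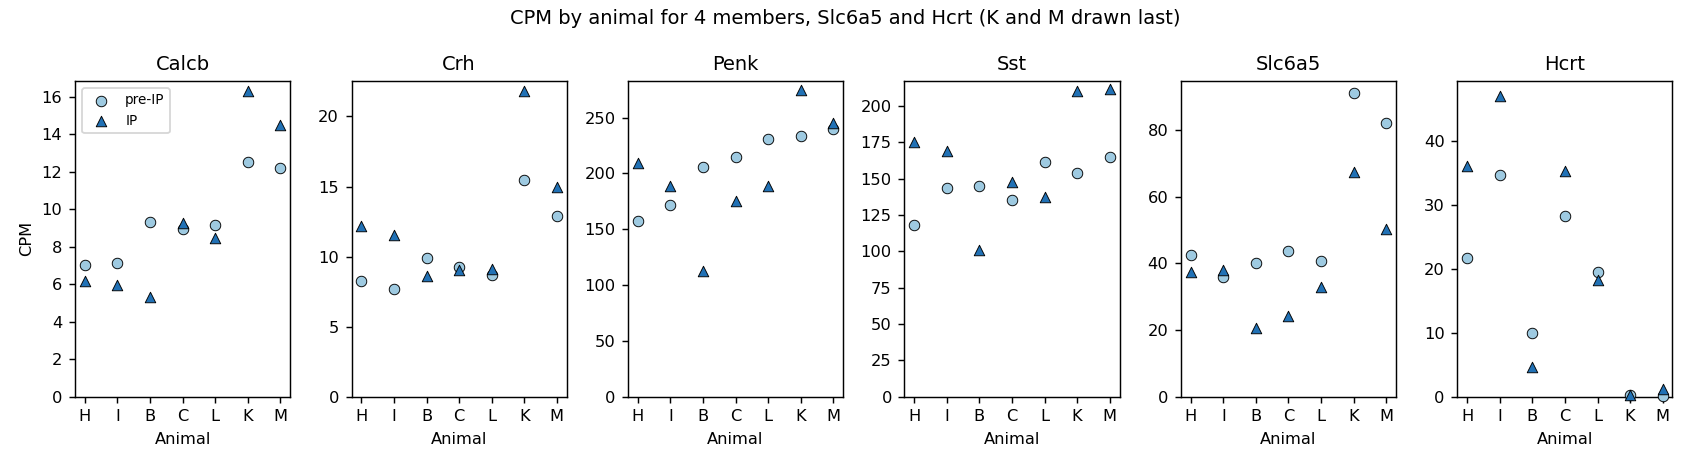
CPM of Calcb, Crh, Penk, Sst, the glycine transporter gene Slc6a5 and the orexin gene Hcrt in the pre-IP (circles) and IP (triangles) libraries of each animal, all axes from 0. K and M, drawn last, are highest for Calcb, Crh and Slc6a5 in pre-IP and reach at most 1.21 CPM for Hcrt.

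Of 38 other neuropeptide precursors, 33 could be tested in IP against pre-IP, and edgeR called 4 higher and 1 lower, beside the 16.3% higher and 14.7% lower of all genes given above, which also stand beside the counts of the next lists. Their median log2 fold change was 0.31. Those higher were Prlh, the prolactin-releasing peptide precursor (log2 2.84, SE 0.66), Npb, the neuropeptide B precursor (1.33, SE 0.47), Sct, which encodes secretin (1.10, SE 0.30), and Nmb, which encodes neuromedin B (0.81, SE 0.24). Apln, the apelin precursor, was lower (-0.94, SE 0.20). With the animal as a block Npb was no longer called (edgeR adjusted p = 0.0713), Pomc was called higher (0.40) and Adm lower (-0.58). Taken by treatment without the block, edgeR called 4 of the 33 higher and 1 lower in the tau animals. In the EYFP animals it called 0 higher and 0 lower. The shares of all genes were 10.4% and 10.3% in the tau and 3.96% and 2.41% in the EYFP animals. Npb had a mean log2 ratio of 2.05 in the tau and -0.13 in the EYFP animals. Prlh stood at 25.5, 20.6, 2.68 and 4.21 CPM in tau IP libraries of B, C, L and M and at 1.20 to 2.49 CPM in EYFP IP libraries. Npb stood at 22.98, 9.72, 7.83 and 4.38 CPM in the former and at 2.17 to 3.18 CPM in the latter. In tau against EYFP IP edgeR called none of the 33, DESeq2 gave an adjusted p for only 3 of them and called 0, and the smallest edgeR p belonged to Npb (log2 2.26, SE 0.56, edgeR adjusted p = 0.318) and Prlh (2.95, SE 0.81, edgeR adjusted p = 0.318).

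Genes for the processing of precursors and for dense core granules were next. Of 14 tested in IP against pre-IP, edgeR called 6 higher and 1 lower, with a median log2 fold change of 0.30. Higher were Cadps, which primes dense core vesicles for release (0.59, SE 0.09), Scg3 (0.56, SE 0.12) and Chgb (0.59, SE 0.15), granins of the vesicle core, Qpct, the enzyme that cyclises N-terminal glutamine (1.23, SE 0.26), the prohormone convertase gene Pcsk1, and Scg5. Vgf, another granin precursor, was lower (-0.52, SE 0.17). With the animal as a block Scg2 was called higher as well (0.31). By treatment, without the block, edgeR called 4 higher and 1 lower in the tau animals, and 1 higher and 0 lower in the EYFP animals. Qpct stood at 87.2, 46.0, 46.3 and 27.1 CPM in tau IP libraries of B, C, L and M and at 22.0 to 31.1 CPM in EYFP IP libraries. In tau against EYFP IP edgeR called none of the 14. DESeq2 gave an adjusted p for 11 of them and called Qpct higher and Vgf lower. The smallest edgeR p belonged to Vgf (-0.66, SE 0.16, adjusted p = 0.318) and Qpct (1.14, SE 0.38, adjusted p = 0.320).

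Of 25 genes for receptors of these peptides, 23 could be tested in IP against pre-IP, and edgeR called 2 higher and 6 lower, with a median log2 fold change of -0.24. Higher were Calcr, the calcitonin receptor (2.37, SE 0.54), and Npy4r, a receptor of the neuropeptide Y family (1.15, SE 0.41). Lower were Adcyap1r1, the PACAP receptor (-0.91, SE 0.13), the somatostatin receptor gene Sstr3 (-0.80, SE 0.16), Crhr1, the receptor of corticotropin-releasing hormone (-0.82, SE 0.20), Oprd1, the delta opioid receptor (-1.34, SE 0.33), Sstr1 (-0.49, SE 0.16) and Sstr4 (-1.36, SE 0.49). With the animal as a block Npy4r and Sstr4 were no longer called (edgeR adjusted p 0.0965 and 0.0549), and Vipr2 was called lower (-0.50). By treatment, without the block, edgeR called 2 higher and 5 lower in the tau animals, and 0 higher and 1 lower in the EYFP animals. Calcr stood at 43.8, 29.9, 23.3 and 8.32 CPM in tau IP libraries of B, C, L and M, at 2.89 to 4.10 CPM in EYFP IP and at 1.82 to 2.85 CPM in all pre-IP libraries, with the tau IP libraries in the same order as for Gal. In tau against EYFP IP edgeR called none of the 23, DESeq2 gave an adjusted p for only 3 and called 0, Calcr not among the 3, and the smallest edgeR p belonged to Calcr (3.07, SE 0.53, edgeR adjusted p = 0.318) and Sstr2 (1.77, SE 0.48, edgeR adjusted p = 0.318). Adcyap1r1 stood at 73.6 to 115.5 CPM in IP and at 147 to 234 CPM in pre-IP libraries, with no overlap. The share of all genes with IP and pre-IP ranges apart was not counted. In tau against EYFP pre-IP, edgeR and DESeq2 called none of the genes of these 3 lists; the smallest p in each belonged to Agrp (0.65, SE 0.29) and Pnoc, Scg5 (0.21, SE 0.13) and Cpe, and Crhr2 (-0.41, SE 0.20) and Vipr1, all with an edgeR adjusted p of 1.000.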

How the data were processed

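RNA-seq counts of 14 libraries from 7 animals were analysed. Per the labels' protocols, libraries were made with SMART-Seq v4 and Nextera XT; the submitters' processing notes name FastQC, Trim Galore, STAR, featureCounts and the builds GRCm38 and mm10, without versions. The authors deposited raw counts per gene, a gene table, and a sample sheet with RNA concentrations and integrity numbers as scores, and percent values of read quality and GC; the percent values, as deposited by the authors, were not used. Use of strand and of reads with several placements is not given in the sources used here; SMART-Seq v4 does not mark strand.

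Counts were tested with edgeR 4.0.16 (quasi-likelihood F test, filterByExpr, TMM, Benjamini-Hochberg over all genes tested, threshold 0.05) in R 4.3.3; SEs are the log2 fold change over the square root of F. DESeq2 1.42.0, limma 3.58.1 (voom), other filters, covariates and leaving out each animal were alternatives. Log2 ratios used a prior count of 2. The main edgeR fit of each comparison was tested on simulated data, in which the libraries of an animal were drawn independently. The alternatives were not tested in this way. Symbols came from the deposited table for 51656 genes and from GENCODE M21 for 3669. Coordinates of all 10 members equal GENCODE M21. The animal letter in the titles pairs the fractions: deviations from group means correlated at 0.217 to 0.551 within animals (mean 0.347). Groups came from the titles. The labels do not say more about separate preparations, so in fits of a single fraction p-values measure the spread between these animals. Fits of both fractions without the animal block treat the libraries of an animal as independent. Members and gene lists were chosen with earlier results of these data known. All 10 members are named throughout, with the 3 most similar genes each, and of each list up to 4 called genes per direction or the 2 smallest p where none was called; Hcrt, Oxt, Slc6a5, the values of K and M, the genes called with the block, and further called genes of the processing and receptor lists were added after values were seen. Lhb matched 2 identifiers and was not used. Some marker genes are not reported here and entered no marker sum or mean.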

Additional observations from a re-analysis of the deposited data

Results flagged for a closer look

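Of 30 groups of 4 animals examined for a member, 2 had a sample far from the other 3 by Dixon's test at the 95% level, where chance flags about 1 group in 20. Both samples came from tau animal M. Calcb was at 12.2 CPM in its pre-IP library, against 8.92 to 9.31 CPM in the other tau pre-IP libraries. Crh was at 14.98 CPM in its IP library, against 8.61 to 9.11 CPM in the other tau IP libraries. EYFP animal K had values of 12.5 and 21.8 CPM for the same genes and fractions.

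Penk differed in the sign of its IP over pre-IP ratio between treatments: all 4 tau animals were below 0 and all 3 EYFP animals above it, with a difference in mean log2 ratio, tau minus EYFP, of -0.52. The interaction in edgeR, without the animal block, was -0.48 (SE 0.30, adjusted p = 0.837), and the ratio of tau animal M was -0.00074. How many of all genes differ in sign in this way was not counted.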

How the results depend on the processing

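Limits. With 3 and 4 animals per group and a spread of Gal in tau IP libraries from 123 to 1178 CPM, whether Gal and Calca passed the threshold in tau against EYFP IP depended on the test and on animal M. Depth did not limit the members, all of which had at least 287 counts in every library. In tau against EYFP IP, the members called were 2 by DESeq2, without a filter and in a single fit of all 14 libraries, against 0, and 0 to 2 when each animal was left out. All genes called there were 411 by DESeq2, 113 without a filter, 202 in the single fit and 0 to 128 with an animal left out, the 128 without M. In pre-IP, 44 genes and 0 members were called without a filter and 0 to 1 genes with an animal left out. In the interaction, 2 members were called by DESeq2, 2 without a filter and 0 to 2 with an animal left out; all genes called were 52, 67 and 0 to 56.

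In IP against pre-IP, 4 members were called with the replicate block, as without it, among 6119 genes against 5828. The EYFP animals only gave 1 member and 1218 genes, and 2 and 3227 with the replicate block; leaving out each animal gave 2 to 4 members. The replicate block changed no call of a member or listed peptide gene beyond those given with the results. The causes of these changes were not tested.

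Signs changed only for fold changes that were called in no setting. Left-out animals gave ranges of -0.21 to 0.73 for Calcb in tau against EYFP IP; in pre-IP of -0.0039 to 0.19 for Gal, -0.016 to 0.12 for Npy, -0.058 to 0.37 for Calca, -0.019 to 0.55 for Calcb, -0.024 to 0.19 for Cartpt and -0.22 to 0.42 for Crh, which was 0.19 by limma voom. In IP against pre-IP they ranged from -0.066 to 0.10 for Calcb and from -0.10 to 0.057 for Penk. Calcb there was -0.020 with the library number range, -0.044 with the replicate block, -0.038 in tau animals only, -0.089 in these with the replicate block and -0.021 in EYFP animals only with it. Penk was 0.091 by limma voom, 0.24 in EYFP animals only and 0.25 with the block. In tau animals only, Tac1 was -0.078 and, with the replicate block, -0.10, where Sst was -0.0067. In the interaction, left-out animals gave -0.26 to 0.17 for Calcb and -0.045 to 0.13 for Adcyap1, which was -0.069 by limma voom. Over all alternatives, 535 fold changes of members kept their direction and side of the threshold, 15 came to pass it, 16 no longer passed it and 34 changed sign. A prior count of 0.5 or library totals without scaling moved no mean ratio of a member by more than 1 SD over animals.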
